A study of Rattus norvegicus with 10 samples.

Results

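The miRNAs described here are the 6 mature arms of 3 hairpins of blood vessels: miR-126a-3p and miR-126a-5p of the endothelium, and miR-143-3p, miR-143-5p, miR-145-5p and miR-145-3p of the mural cells around it. They were chosen by name, and all 6 were found among the 765 rat miRNAs of the deposited table. The libraries are small RNA sequencing of the hippocampus of wistar rats aged 10 weeks. In the sham group (5 libraries, replicates 1 to 5) the rats had a mock operation, and in the 2-VO group (5 libraries, replicates 3, 5, 6, 7 and 8) the common carotid arteries of both sides were occluded. This lowers the blood supply of the brain and serves as a model of chronic cerebral hypoperfusion. The sources used here do not give the time after the operation, the sex of the rats or the number of animals behind a library. The p-values of the group comparison therefore set a difference of group means against the variation between libraries. Part of that variation may be technical, and it may not stand for variation between animals. The values are RPM, the reads of a miRNA scaled by a divisor of its library. The sources used here do not say which reads that divisor counts.

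miR-126 is the classic endothelial miRNA. Its hairpin lies inside Egfl7, a gene that endothelial cells express, and its 3p arm is known to favour signalling by vascular endothelial growth factor through repression of Spred1 and a regulatory subunit of phosphoinositide 3-kinase. miR-143 and miR-145 are made from a shared precursor transcript in vascular smooth muscle, pericytes and fibroblasts, under serum response factor and myocardin, and are known to keep smooth muscle in its contractile state. A piece of hippocampus holds capillaries and small arteries, so these miRNAs are read here from whole tissue, in which fewer cells of a type and less RNA per cell cannot be told apart.

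The mature sequences annotated under these names show that no seed is shared between the 6 arms. They are given 5′ to 3′ from RefSeq (build GRCr8), with the seed, bases 2 to 8, in capitals. All 6 names matched. RefSeq places the miR-126a arms on the plus strand of chromosome 3 within Egfl7, and those of miR-143 and miR-145 on the minus strand of chromosome 18 within the long non-coding RNA gene Carmn, where Mir143 and Mir145 are neighbours.
miR-126a-3p: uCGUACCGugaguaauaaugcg
miR-126a-5p: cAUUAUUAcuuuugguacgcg
miR-143-3p: uGAGAUGAagcacuguagcuca
miR-143-5p: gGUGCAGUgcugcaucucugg
miR-145-5p: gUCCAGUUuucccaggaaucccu
miR-145-3p: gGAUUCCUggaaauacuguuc
miR-126b: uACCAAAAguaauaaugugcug

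The last of these, miR-126b, is no member and is shown because it is annotated on the opposite strand of the miR-126a hairpin. The reverse complement of miR-126b holds 17 bases in a row of miR-126a-5p. Its row was listed at 0 in all 10 libraries, which stands for fewer than 10 reads each. No other mature rat miRNA in the RefSeq table has the seed of any of the 6 members, and no other row of the deposited table repeats their values.

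Every member had reads in all 10 libraries. The libraries hold 13032805 to 13850400 reads in the divisor of the RPM values, of which 66.4% to 77.0% in sham and 60.3% to 78.0% in 2-VO libraries fell on listed miRNAs. The lowest shares within the 2-VO group were those of replicates 3 (60.3%) and 7 (64.2%). The miRNAs listed here for neurons (miR-124-3p, miR-128-3p and miR-9a-5p) summed to 158878 to 205287 RPM per library. Most of that sum was miR-9a-5p, with a mean of 132415 RPM over the 10 libraries. The means of miR-128-3p and miR-124-3p were 52524 and 2255 RPM. Such a sum depends on its most abundant miRNA and is no measure of how much of a cell type a sample holds. Lists for other cells that a hippocampal sample can hold had lower sums. Red blood cell miRNAs (4 of 4 listed) summed to 131 to 157 RPM in sham and 84.9 to 220 RPM in 2-VO libraries, leukocyte miRNAs (4 of 4) to 241 to 284 and 231 to 295 RPM, and fibroblast miRNAs (3 of 3) to 96.3 to 140 and 92.1 to 151 RPM. Choroid plexus and ependymal miRNAs (6 of 6) summed to 871 to 2022 RPM in sham and 857 to 1197 RPM in 2-VO libraries, and striated muscle miRNAs (4 of 4) to 26.1 to 32.1 and 22.5 to 36.2 RPM. None of these listed markers was at 0 throughout. The red blood cell sum was mostly miR-486 (mean 120.1 RPM), and the leukocyte sum mostly miR-150-5p (mean 228.5 RPM). In the choroid plexus and ependymal list 2 of 6 had an unadjusted p under 0.05 (limma), where 5.06% of all tested miRNAs had. Both, miR-204-5p and miR-211-5p, had lower levels in 2-VO and did not pass (adjusted p = 0.44 and 0.64, limma), and their part in the results on the members was not tested.

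miR-143-3p, the main arm of its hairpin, was the most abundant member and ranked 12 among the 765 miRNAs by mean RPM. It stood at 12281, 12691, 13597, 11978 and 11321 RPM in sham replicates 1 to 5, and at 10040, 12781, 14050, 9994 and 14139 RPM in 2-VO replicates 3, 5, 6, 7 and 8. The 2-VO libraries lay both below and above the whole sham range, with replicates 3 and 7 low and 6 and 8 high. miR-126a-3p, the main endothelial arm, ranked 22. Its sham values were 6949, 6724, 7060, 6300 and 7411 RPM, and its 2-VO values 5880, 6876, 6773, 5524 and 7982 RPM, again with replicates 3 and 7 at the bottom and 8 at the top. miR-143-3p took 1.72% ± 0.113 of the listed RPM in the sham group (SD, n = 5) and 1.75% ± 0.138 in the 2-VO group, and miR-126a-3p took 0.959% ± 0.051 and 0.953% ± 0.089.

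The other 4 arms were far lower. miR-126a-5p, which is the less abundant arm but has targets of its own in endothelial cells, ran from 249 to 320 RPM in sham (median 295) and from 244 to 359 RPM in 2-VO libraries (median 309). miR-145-5p, the main arm of its hairpin, stood at 211, 242, 208, 165 and 247 RPM in sham replicates 1 to 5 and at 134, 253, 255, 211 and 165 RPM in the 2-VO replicates in the order above. Its low libraries were thus 2-VO replicates 3 and 8 and sham replicate 4, and the groups overlapped. miR-145-3p ran from 36.8 to 51.6 RPM in sham and 36.9 to 55.8 RPM in 2-VO libraries, and miR-143-5p, the rarely kept arm of the most abundant member, from 21.5 to 23.9 and from 16.4 to 31.4 RPM.

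**Figure D1:**
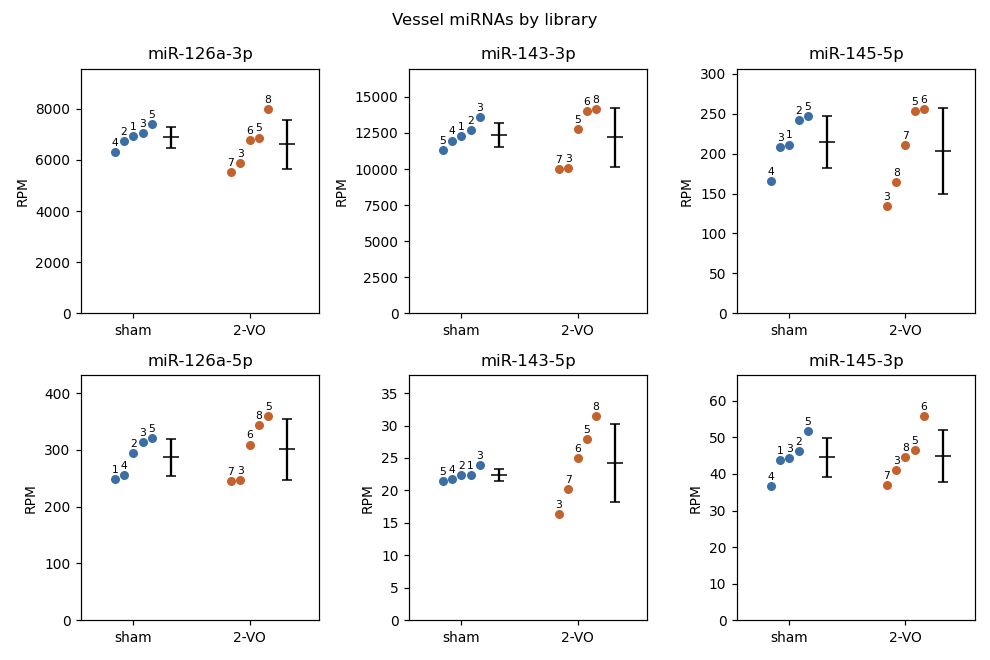
RPM of the 6 arms in each library (points, labelled by replicate number), with the mean and SD of 5 libraries beside each group and the vertical axis starting at 0. The groups overlap in each panel, and miR-143-5p lies between 21.5 and 23.9 RPM in sham but between 16.4 and 31.4 RPM in 2-VO libraries. Its sham coefficient of variation, 4.10%, is under the 5.78% of counting error.

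The order of the members by level was miR-143-3p, miR-126a-3p, miR-126a-5p, miR-145-5p, miR-145-3p and miR-143-5p, and each neighbouring pair stood in this order in 10 of 10 libraries. The ranges over the 10 libraries were separate for each neighbouring pair except miR-126a-5p and miR-145-5p, whose ranges overlapped. All 6 are 21 to 23 bases long and a read is a whole miRNA, so RPM needs no correction for length. Adapters join some miRNA ends more readily than others, and so a level compares reads of different miRNAs and not molecules.

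The comparison of 2-VO with sham asks whether miRNAs of the vessel wall differ in the hippocampus after carotid occlusion. None of the 6 members passed. Among the 474 miRNAs tested, those averaging 1 RPM or more, 0 passed (limma's moderated test on log2(RPM + 1), Benjamini-Hochberg adjusted p under 0.05), which is 0.0% of those tested, against 24, or 5.06%, at an unadjusted p under 0.05. The voom fit on whole reads gave 0 and 25. Of the members 0 of 6 had an unadjusted p under 0.05, and 0 of 6 had groups that did not overlap, where 0.633% of all tested miRNAs had.

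The mean of miR-126a-3p was 6889 ± 412 RPM over the sham and 6607 ± 961 RPM over the 2-VO group (SD, n = 5). Its log2 fold change was -0.07 with an SE of 0.10 (adjusted p = 0.96, limma). The 95% interval of that fold change ran from 0.816 to 1.11 times the sham level. For its 5p arm the levels were 287 ± 32.8 and 301 ± 53.4 RPM, a log2 fold change of 0.06 ± 0.13 with an interval of 0.857 to 1.27 times. Neither arm of the endothelial hairpin passed the threshold (adjusted p = 0.96 for the 5p arm too, limma).

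Among the mural arms, the mean of miR-143-3p was 12374 ± 847 RPM for sham against 12201 ± 2065 RPM for 2-VO (log2 fold change -0.03 ± 0.11, adjusted p = 0.96 by limma, interval 0.824 to 1.16 times). miR-145-5p had the largest log2 fold change of the 6 in size, -0.11 ± 0.18, with 215 ± 32.7 against 204 ± 53.7 RPM and the widest interval, 0.717 to 1.21 times (adjusted p = 0.96 by limma). Without 2-VO replicate 3 its log2 fold change was 0.03. miR-143-5p stood at 22.4 ± 0.918 and 24.2 ± 5.99 RPM (log2 fold change 0.08 ± 0.15, or 0.20 without 2-VO replicate 3), and miR-145-3p at 44.6 ± 5.34 and 44.99 ± 7.08 RPM (0.01 ± 0.13). These 2 minor arms had limma adjusted p of 0.96 and 0.99.

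Of the 6 members 3 had a log2 fold change below 0, where 62.2% of all tested miRNAs had, and the members' median was -0.01 against -0.05 for all. This split depends on the scaling. Scaled to the listed miRNA reads, 2 of 6 were below 0 (49.4% of all), with a median of 0.04 against 0.00 for all, and with factors from the trimmed mean of M-values 2 of 6 (50.8% of all). miR-143-3p had the sign that turned, from -0.03 to 0.02 in both cases.

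**Figure D2:**
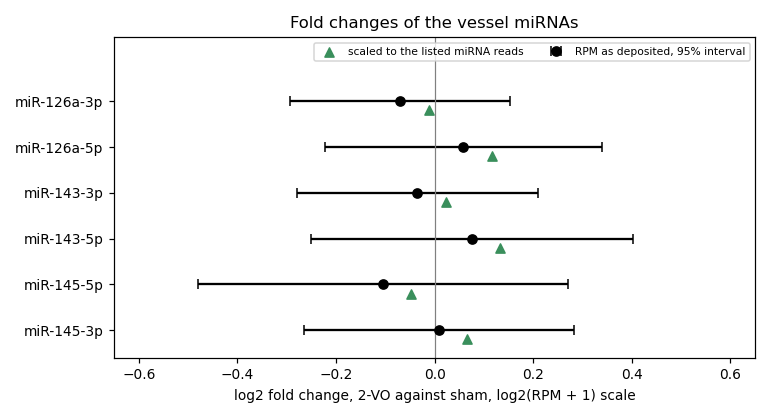
Log2 fold change of each member, 2-VO against sham (black points with 95% intervals from limma, RPM as deposited), and the same value scaled to the listed miRNA reads (green triangles, no interval drawn). The 6 intervals hold 0, and the largest reaches from -0.48 to 0.27 for miR-145-5p.

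A plain ratio within a library does not depend on its divisor. The log2 ratios were taken of RPM + 1, which leaves a small dependence on the divisor for low arms. Of such ratios 6 were compared, with p adjusted over the 6. The first sets endothelial against mural miRNA. miR-143-3p exceeded miR-126a-3p by 1.53 to 1.93 times in sham and by 1.71 to 2.07 times in 2-VO libraries. On the log2 scale the ratio of miR-126a-3p to miR-143-3p averaged -0.84 ± 0.139 for sham against -0.88 ± 0.107 for 2-VO (SD, n = 5). The difference was -0.04 ± 0.08 (SE; exact two-sided permutation test, p = 0.67, adjusted p = 0.87). Its 95% interval, from inverting the exact test, was 0.852 to 1.09 times the sham ratio.

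Against the other mural arm the balance was less even between libraries. The ratio of miR-126a-3p to miR-145-5p ran from 27.8 in replicate 2 to 38.1 in replicate 4 of the sham group. It was 43.8 and 48.5 in 2-VO replicates 3 and 8, above each sham library. In 2-VO replicates 5, 6 and 7 it was 27.1, 26.5 and 26.2, slightly below the lowest sham library. On the log2 scale these 3 stood at 4.76, 4.72 and 4.71, against 4.79 in sham replicate 2. The counting error was 0.03 in each of these libraries. The group means did not separate (log2 difference 0.04 ± 0.21 SE, exact permutation p = 0.87, adjusted p = 0.87, interval 0.746 to 1.497 times).

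miR-143-3p and miR-145-5p come from the same transcript, and their ratio ran from 45.8 to 72.5 in sham and from 47.5 to 85.8 in 2-VO libraries. The highest values were those of 2-VO replicates 8 (85.8) and 3 (74.8). On the log2 scale replicate 3 (6.21) was close to sham replicate 4 (6.17), with a counting error of 0.03 in each. The low miR-145-5p of 2-VO replicates 3 and 8 (134 and 165 RPM) enters this ratio, the one before and the miR-145 arm ratio. These ratios are thus not independent of each other. The difference of the log2 ratio between groups was 0.07 ± 0.20 (SE; exact permutation p = 0.74, adjusted p = 0.87, interval 0.755 to 1.48 times).

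A hairpin yields a 5p and a 3p strand, of which one is usually kept in Argonaute. miR-126a-3p exceeded its 5p arm by 22.5 to 27.9 times in sham and 19.1 to 23.8 times in 2-VO libraries. For miR-143 the 3p arm led by 527 to 570 times in sham and 450 to 612 times in 2-VO libraries, and for miR-145 the 5p arm led by 4.49 to 5.23 and 3.26 to 5.71 times. The arm with more reads was thus the same in all 10 libraries for each hairpin. The log2 difference between groups was 0.13 ± 0.08 for miR-126a, 0.11 ± 0.08 for miR-143 (both 5p to 3p) and -0.11 ± 0.16 for miR-145 (5p to 3p). None of these passed (exact permutation p = 0.15, 0.21 and 0.47, adjusted p = 0.62, 0.62 and 0.87), and the intervals were 0.973 to 1.24, 0.932 to 1.22 and 0.695 to 1.195 times the sham ratio.

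The arms of miR-145 were unevenly spread over the 2-VO libraries. Their ratio was 4.82, 5.23, 4.70, 4.49 and 4.78 in sham replicates 1 to 5, an SD of 0.08 on the log2 scale, close to the counting error of 0.06 to 0.07 in each library. In 2-VO replicates 3, 5, 6, 7 and 8 it was 3.26, 5.43, 4.58, 5.71 and 3.70, an SD of 0.35. Replicates 3 and 8 lay below each sham library, and 5 and 7 above. On the log2 scale replicate 5 (2.42) exceeded sham replicate 2 (2.36) by less than the counting error of either library. The spread of the miR-145 arm ratio was ranked among 74 hairpins with both arms at a mean of at least 10 RPM. It ranked 2 from the highest in the 2-VO group (median SD 0.17) and 64 in the sham group (median SD 0.16). The arm ratio of miR-143 went from an SD of 0.05 (rank 72) to 0.18 (rank 35), and that of miR-126a was 0.13 and 0.12. For miR-143 the sham SD was under the counting error of 0.08 to 0.09 in each sham library. An SD of 5 libraries is itself uncertain and can fall under the counting error, so this low sham SD is a weak baseline. The difference in spread was seen in these data and was not tested.

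**Figure D3:**
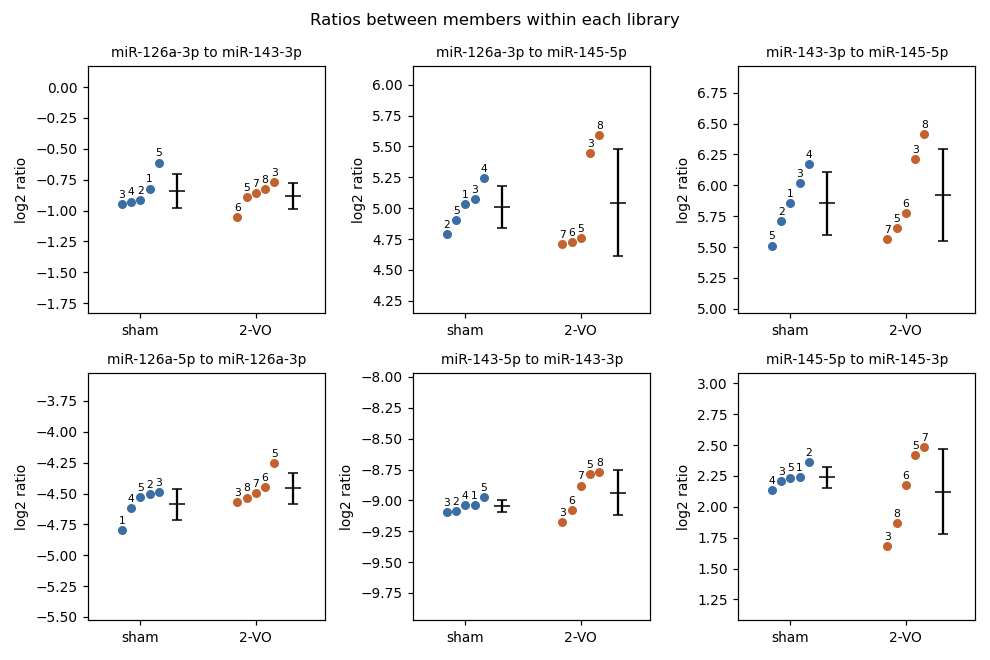
Log2 ratios of members within each library (points, labelled by replicate number), with the mean and SD of each group beside them and 2 log2 units shown in each panel. The group means lie close together, while 2-VO replicates 3 and 8 stand above the sham libraries for miR-126a-3p to miR-145-5p and below them for miR-145-5p to miR-145-3p.

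The spread of RPM between libraries was also larger in the 2-VO group for each member. The coefficient of variation was 5.99% in sham and 14.5% in 2-VO for miR-126a-3p, 6.85% and 16.9% for miR-143-3p, 15.2% and 26.4% for miR-145-5p, and 4.10% and 24.8% for miR-143-5p. For miR-126a-5p it was 11.4% and 17.8%, and for miR-145-3p 12.0% and 15.7%. Counting error alone accounts for 5.78% and 5.55% for miR-143-5p, which had 225 to 435 reads, and for at most 4.10% in the other 5. The sham value of miR-143-5p was thus under its counting error. A larger spread in the 2-VO group was found for most miRNAs. Of 339 miRNAs averaging 10 RPM or more, 72.9% varied more in 2-VO libraries (median 11.4% and 14.9%). Scaled to the listed miRNA reads, 60.5% did, and 5 of the 6 members (miR-143-3p at 6.58% and 7.89%, miR-143-5p at 5.35% and 18.2%, miR-145-3p at 9.26% and 9.14%). The part of the low share of listed reads in 2-VO replicates 3 and 7 in this spread was not tested beyond that scaling, and neither was the spread itself.

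Across the 10 libraries 6 relations were computed on log2(RPM + 1), with p adjusted over the 6. miR-126a-3p and miR-143-3p gave the highest r, which did not pass the adjusted threshold (Pearson's r = 0.76, permutation p = 0.010, adjusted p = 0.063, Spearman's rho = 0.62, permutation p = 0.061, adjusted p = 0.37). Without 2-VO replicates 7 and 8, the 2 libraries farthest from the median, r was 0.52. Scaled to the listed miRNA reads it was 0.34 (permutation test, adjusted p = 0.56), and scaled without these libraries it was -0.26. As deviations from the group means, pooled over the 10 libraries, r was 0.76 (permutation test, adjusted p = 0.059). That permutation treated the 10 deviations as exchangeable. A pooled r does not show that the relation held in each group. Sham replicate 5 had the highest miR-126a-3p of its group (7411 RPM) and the lowest miR-143-3p (11321 RPM). Values of 1 library share its divisor, so RPM values of 2 miRNAs are not independent of each other.

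miR-145-5p followed neither of them closely, with r = 0.26 and rho = 0.14 against miR-126a-3p (permutation p = 0.47 and 0.71, adjusted 0.47 and 0.85) and r = 0.34 and rho = 0.21 against miR-143-3p (permutation p = 0.33 and 0.56, adjusted 0.44 and 0.85). The first of these was 0.83 without 2-VO replicates 7 and 8. The second was -0.12 without 2-VO replicates 3 and 7. Scaled to the listed miRNA reads, the 2 relations were -0.38 and -0.29. On that scale the first was 0.004 without 2-VO replicates 7 and 8. The second was 0.07 without sham replicate 5 and 2-VO replicate 7, the farthest on that scale.

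**Figure D4:**
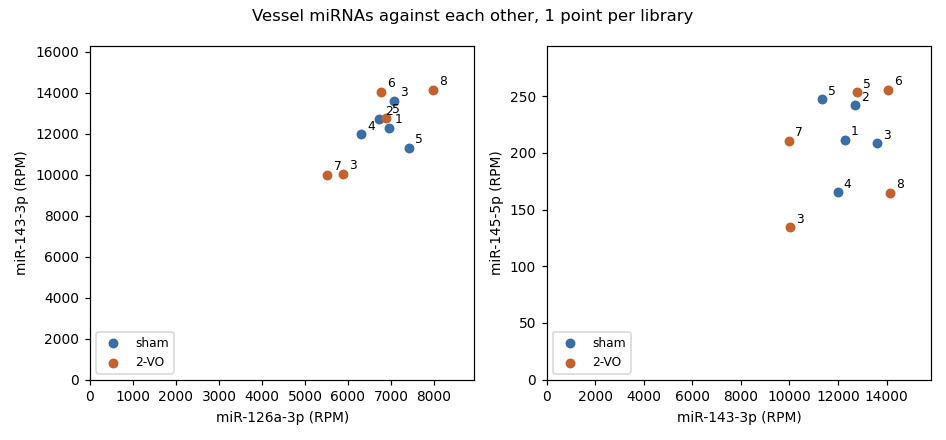
RPM of miR-143-3p against miR-126a-3p (left) and of miR-145-5p against miR-143-3p (right), 1 point per library, labelled by replicate number, axes starting at 0. On the left 2-VO replicates 7 and 3 are low and 2-VO replicate 8 is high in both miRNAs, while sham replicate 5 is high in miR-126a-3p (7411 RPM) and low for its group in miR-143-3p (11321 RPM). On the right 2-VO replicates 3 and 8 are both low in miR-145-5p, at 134 and 165 RPM, although miR-143-3p is 10040 RPM in one and 14139 RPM in the other.

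Blood left in the vessels could carry miRNAs along with the vessel wall, and so miR-451-5p, a miRNA of red blood cells, was set against the members. Its mean was 17.3 ± 3.54 RPM for sham against 22.3 ± 11.4 RPM for 2-VO (SD, n = 5), with 5.76 RPM in 2-VO replicate 3 and 36.2 RPM in 2-VO replicate 8. Its r was 0.41 with miR-126a-3p, 0.39 with miR-143-3p and 0.33 with miR-145-5p (rho 0.31, 0.20 and 0.07, permutation p of r 0.24, 0.27 and 0.37, adjusted p = 0.44 each, and permutation p of rho 0.39, 0.58 and 0.86, adjusted p = 0.85, 0.85 and 0.86). Without 2-VO replicates 3 and 8 the 3 values of r were -0.45, -0.55 and -0.10. Scaled to the listed miRNA reads, r was 0.25, 0.26 and 0.21 (adjusted p = 0.56 each), and without the same libraries 0.20, -0.11 and 0.24. The sign of the relations as deposited thus turned without these libraries, and scaled it turned for miR-143-3p. The relations did not pass on either scale.

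By the highest Pearson's r over the 10 libraries, among 338 other miRNAs of at least 10 RPM, the patterns most like miR-126a-3p were those of miR-330-5p (r = 0.92), miR-434-5p (0.91) and miR-3578 (0.88). For miR-143-3p they were miR-1843a-5p (0.92), miR-300-3p (0.91) and miR-127-3p (0.91), and for miR-145-5p miR-7a-5p (0.91), miR-702-3p (0.91) and miR-541-5p (0.89). The median r with all others was 0.47, 0.54 and 0.36 as deposited, and 0.08, 0.07 and -0.03 scaled to the listed miRNA reads. The partner arms ranked lower: miR-126a-5p stood at order 14 for miR-126a-3p (0.76), miR-143-5p at 18 for miR-143-3p (0.84) and miR-145-3p at 63 for miR-145-5p (0.63). miR-145-5p stood at order 256 for miR-143-3p. Scaled to the listed reads miR-7a-5p still headed the list for miR-145-5p (0.90), and miR-330-5p that for miR-126a-3p (0.82). For miR-143-3p it was then headed by miR-218b (0.73), and its own 5p arm stood at order 3 (0.70). miR-7a-5p, an abundant neuroendocrine miRNA, stood at 9928, 26099, 25007, 26184 and 17611 RPM in 2-VO replicates 3, 5, 6, 7 and 8. The sham libraries ran from 16825 to 27352 RPM, so only 2-VO replicate 3 lay below them. The group means were 21786 RPM for sham and 20966 RPM for 2-VO. The correlations are descriptions over 10 libraries.

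Other miRNAs known from endothelium, smooth muscle or pericytes were taken as a list of 20, of which 18 names were listed and 17 averaged 1 RPM or more. The names miR-126b-3p and miR-126b-5p are not in the table, which lists miR-126b, and miR-214-3p was under 1 RPM. Of the 17, 0 passed and 0 had an unadjusted p under 0.05 (limma), where 0.0% and 5.06% of all tested miRNAs did. A log2 fold change above 0 was found for 10 and below 0 for 7, where 62.2% of all tested miRNAs were below 0. The median of the list was 0.04 against -0.05 for all tested miRNAs. Scaled to the listed miRNA reads, the list stood at 12 above and 5 below 0, where 49.4% of all were below 0.

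The smallest p of this list belonged to miR-10a-5p, a Hox-cluster miRNA that endothelial cells also express, at 12.7 ± 9.73 RPM for sham against 21.4 ± 8.79 RPM for 2-VO (SD, n = 5). The log2 fold change was 0.96 with an SE of 0.47 (adjusted p = 0.76, limma). After it came miR-10b-5p and miR-24-3p with the same p of 0.066. For miR-10b-5p the levels were 2.05 ± 1.28 and 3.19 ± 1.13 RPM (log2 fold change 0.51 ± 0.26). miR-24-3p, of the miR-23/27/24 clusters that act in vessel growth, stood at 2916 ± 235 and 2534 ± 317 RPM (log2 fold change -0.21 ± 0.10). The 2 most abundant were miR-27b-3p at 11679 ± 1666 and 11737 ± 1011 RPM and miR-100-5p at 11899 ± 945 and 10854 ± 1319 RPM, levels like that of miR-143-3p. Their log2 fold changes were 0.01 ± 0.11 and -0.14 ± 0.10. Many of these miRNAs are also made by cells outside the vessel wall, and the list is no measure of vessel content. It overlaps with lists given above: miR-1-3p and miR-133a-3p are also in the striated muscle list. miR-199a-3p, miR-199a-5p and miR-214-3p are also in the fibroblast list.

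**Figure D5:**
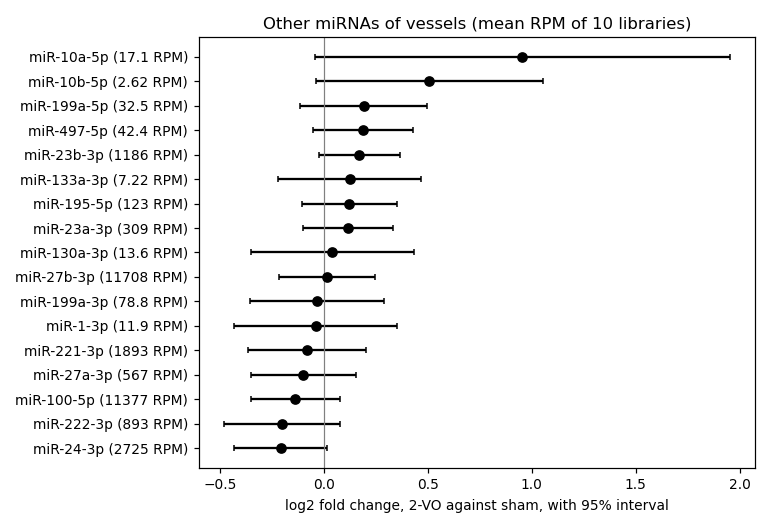
Log2 fold change, 2-VO against sham, with 95% interval from limma for the 17 other vessel miRNAs, labelled with their mean RPM over the 10 libraries. The 17 intervals hold 0, and the widest is that of miR-10a-5p, from -0.04 to 1.95.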

How the data were processed

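Small RNA libraries of 5 sham and 5 2-VO samples were made with adapter ligation, amplification and gel size selection, per the labels' protocols. The deposited values are RPM, per the file headers, with 1 column a library. Tools named are bcl2fastq and BWA, with build rn6, per the submitters' processing notes. The sources used here do not give versions, the annotation, the handling of reads with several matches or the divisor. The authors' RPM values were whole reads within 0.01 reads at a divisor of 13032805 to 13850400 per library. The smallest stood for 10 reads, so 0 means fewer than 10. No molecular identifiers are named, so counting errors cover reads only.

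log2(RPM + 1) of 474 miRNAs (mean of at least 1 RPM) was compared with limma 3.58.1 in R 4.3.3 (mean-variance trend, two-sided, Benjamini-Hochberg, threshold 0.05). The limma step was tested on simulated data. Log2 ratios of RPM + 1 were compared by exact permutation over 252 assignments (smallest p 0.0079), correlations by 100000 permutations in Python 3.11.15. Alternatives were pseudocount, filter, scaling, weights, permutation test, replicate block, voom (added after seeing the data) and leaving out each library. The rule named all members, the 2 other vessel miRNAs of smallest p and the 2 most abundant, and the 3 most like patterns for 3 members. A tie added 1, and miR-7a-5p was described further after its values were seen. Members and lists were chosen with earlier results of these data known. The count model that was planned was not run, and voom on the inferred whole reads stands in its place.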

Additional observations from a re-analysis of the deposited data

How the results depend on the processing

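For the 6 members' log2 fold changes, 106 of 120 values under other settings kept their sign, 14 turned it, and 0 passed (limma, smallest adjusted p = 0.63). The sign of miR-143-3p turned to 0.0233 scaled to the listed reads, 0.0190 with trimmed mean of M-values factors and 0.0185 with array weights. Leaving out 1 library gave -0.141 to -0.00864 for miR-126a-3p, -0.0102 to 0.128 for miR-126a-5p, -0.0922 to 0.0329 for miR-143-3p, -0.0240 to 0.200 for miR-143-5p, -0.197 to 0.0335 for miR-145-5p and -0.0708 to 0.0752 for miR-145-3p. For the ratios it gave -0.0624 to 0.0229 (miR-126a-3p to miR-143-3p), -0.102 to 0.119 (miR-126a-3p to miR-145-5p), -0.0524 to 0.161 (miR-143-3p to miR-145-5p), 0.0762 to 0.156, 0.0683 to 0.169 and -0.203 to -0.00346 (5p to 3p of miR-126a, miR-143 and miR-145), and 0 passed. The cause was not tested. Replicate numbers 3 and 5 occur in both groups, and nothing in the labels says that they pair libraries (correlation of deviations -0.058 and -0.18). With these numbers as a replicate block, which leaves 1 degree of freedom and the 2 pairs, the log2 fold changes of miR-126a-5p, miR-143-5p and miR-145-3p were -0.0891, -0.0747 and -0.125, the miR-143 arm ratio was 0.0566, and 8 of 474 miRNAs passed, with no member among them. Without the 2 farthest libraries the correlations were 0.52, 0.83 and -0.12 among the members in the order of the report and -0.45, -0.55 and -0.10 with miR-451-5p, and scaled to the listed reads those of miR-145-5p were -0.38 and -0.29. With 73537 or more reads for the main arms of miR-126a and miR-143, depth does not limit those 2, while miR-143-5p rests on 225 to 435 reads. With any other setting 0 of the miRNAs passed (12 to 43 at an unadjusted p under 0.05). The planned edgeR count test on whole reads was not run, and voom, added after seeing the data, took its place.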
